A study of Mus musculus with 6 samples.

Results

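Globin genes and regulators of red cell formation were followed across RNA sequencing libraries of haematopoietic stem cells (HSCs), the self-renewing cells of bone marrow from which all blood lineages derive. The genes were chosen by symbol from a list of 10: the adult alpha globins Hba-a1 and Hba-a2, the adult beta globins Hbb-bs and Hbb-bt, and Gata1, Klf1, Alas2, Car1, Car2 and Epor. Of these, 9 had a row among the 19086 genes of the expression table, and Alas2, the erythroid enzyme that starts heme synthesis, was not analysed here. The cells were sorted as CD150+ CD48- LSK cells (lineage-negative, Sca-1+, Kit+) from lethally irradiated CD45.1 recipients 2 months after transplantation of CD45.2 bone marrow. In 3 libraries the donors were Zfp521-CKO mice, in which the gene for the zinc finger protein ZFP521 is the one targeted, and in 3 libraries they were Zfp521fl/fl mice, which carry the floxed alleles. The strain was C57BL/6, and both groups share irradiation and transplantation. The labels name no Cre driver and no age, and do not say whether recipient cells were gated out or how many animals stand behind a library. The p-values therefore measure the spread between these 6 libraries alone, and that spread may be technical.

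Haemoglobin is a tetramer of a pair of alpha chains and a pair of beta chains, each holding a heme. Its genes are switched on late in red cell formation, when erythropoietin signals through its receptor Epor and the transcription factors GATA1 and KLF1 drive globin, heme and membrane genes. Globin mRNA becomes the dominant message of reticulocytes, while HSCs and early progenitors carry the regulators at low level. In bulk samples, fewer cells of a type and less RNA per cell cannot be told apart.

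The libraries differed in depth and in other RNA, which touches every value below. Reads recovered from the table numbered 3121303 to 56074156 in libraries labelled Zfp521-CKO, with replicate 1 the deepest and replicate 3 the shallowest, and 7353770 to 10637810 in the Zfp521fl/fl libraries. A level below is given in rpm, the reads of a gene per 1000000 recovered reads of its library, not divided by gene length, and zeros are read against a floor of 3 reads. Zfp521 itself had 27.1, 4.12 and 0 rpm in libraries labelled Zfp521-CKO replicates 1, 2 and 3, against 0, 0.41 and 0 in Zfp521fl/fl replicates 1, 2 and 3. The targeted gene thus went against the labels in replicates 1 and 2 labelled Zfp521-CKO. Its log2 difference was 3.51 with a standard error of 2.58 (limma adjusted p = 0.67). The labels do not say what part of it was deleted, so directions are given by label only. Of 14 HSC markers, 14, 13 and 9 had reads in libraries labelled Zfp521-CKO and 7 in each Zfp521fl/fl library, counts that also vary with depth, and the list took 0.17%, 0.16% and 0.025% of reads against 0.0066%, 0.14% and 0.014%. Slamf1, which encodes CD150, had 646 reads in replicate 1 labelled Zfp521-CKO and 0 in the other 5, and Kit, a receptor used in the sort, had 8971, 7022 and 3 reads in libraries labelled Zfp521-CKO, against 127, 0 and 87 in the Zfp521fl/fl libraries. The 14 granulocyte and neutrophil markers took 0.036%, 1.47% and 12.99% of reads in libraries labelled Zfp521-CKO, against 15.26%, 12.70% and 14.01% in the Zfp521fl/fl libraries. Sums of other marker lists, in the same order of libraries, were 0.068%, 0.049% and 6.4e-05% against 0.09%, 0.0080% and 0.027% for megakaryocytes and platelets, and 0.11%, 0.28% and 0.86% against 0.84%, 0.83% and 0.35% for monocytes and macrophages.

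The promoters of 3 globins and 2 regulators are shown because GATA1 and KLF1, measured here, are known to act through such sites, and because the copies of the beta pair, whose order differed between libraries, can be told apart by them. Each sequence runs from 250 bases before to 50 bases after the start of the gene, from RefSeq on build GRCm38.p6, and 8 of the 10 listed genes matched an entry. Capitals mark GATAA or its reverse complement TTATC, the core recognised by GATA factors, and CACCC or its reverse complement GGGTG, the core of sites bound by KLF1, with no overlap between these motifs in the windows printed. The windows are chr11:32283422-32283721 on the plus strand for Hba-a1, chr7:103827879-103828178 and chr7:103813874-103814173 on the minus strand for Hbb-bs and Hbb-bt, chr8:84901732-84902031 on the plus strand for Klf1, and chr9:21963527-21963826 on the minus strand for Epor.
Hba-a1 promoter: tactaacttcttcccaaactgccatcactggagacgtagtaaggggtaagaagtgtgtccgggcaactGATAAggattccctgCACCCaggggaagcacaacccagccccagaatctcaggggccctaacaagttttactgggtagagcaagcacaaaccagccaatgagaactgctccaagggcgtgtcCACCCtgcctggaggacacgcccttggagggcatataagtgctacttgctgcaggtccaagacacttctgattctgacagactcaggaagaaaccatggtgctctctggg
Hbb-bs promoter: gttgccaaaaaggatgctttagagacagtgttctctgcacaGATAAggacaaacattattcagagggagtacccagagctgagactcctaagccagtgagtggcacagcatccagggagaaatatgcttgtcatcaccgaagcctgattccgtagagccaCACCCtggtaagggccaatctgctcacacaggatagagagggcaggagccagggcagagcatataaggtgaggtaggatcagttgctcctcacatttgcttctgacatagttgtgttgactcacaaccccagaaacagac
Hbb-bt promoter: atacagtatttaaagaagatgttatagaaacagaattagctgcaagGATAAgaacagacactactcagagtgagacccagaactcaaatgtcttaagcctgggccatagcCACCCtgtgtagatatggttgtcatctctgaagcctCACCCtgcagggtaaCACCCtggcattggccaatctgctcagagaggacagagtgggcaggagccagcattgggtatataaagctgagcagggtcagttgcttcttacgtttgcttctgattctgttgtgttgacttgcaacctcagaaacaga
Klf1 promoter: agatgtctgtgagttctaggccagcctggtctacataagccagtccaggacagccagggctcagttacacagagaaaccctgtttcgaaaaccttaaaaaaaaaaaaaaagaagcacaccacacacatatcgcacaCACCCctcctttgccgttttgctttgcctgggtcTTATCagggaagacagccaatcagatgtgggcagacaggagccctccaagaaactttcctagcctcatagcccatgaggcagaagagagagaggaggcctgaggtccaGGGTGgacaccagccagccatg
Epor promoter: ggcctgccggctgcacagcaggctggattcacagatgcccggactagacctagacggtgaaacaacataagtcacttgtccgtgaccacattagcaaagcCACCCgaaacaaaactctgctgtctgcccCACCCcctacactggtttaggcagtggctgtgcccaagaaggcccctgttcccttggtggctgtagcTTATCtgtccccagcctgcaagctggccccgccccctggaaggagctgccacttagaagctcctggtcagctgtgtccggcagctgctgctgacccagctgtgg

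GATAA or TTATC was found in 7 of the 8 windows, all but that of Gata1, and in 25.4% of all 32851 windows of the same length. CACCC or GGGTG was found in 8 of 8 and in 57.5% of all windows. Hbb-bt had 3 CACCC matches and Hbb-bs 1. A match of letters is not evidence of binding. Over 297 aligned bases the Hba-a1 and Hba-a2 promoters were identical, whereas Hbb-bs and Hbb-bt matched at 219 of 293. The transcripts show the same contrast: Hba-a1 and Hba-a2 were identical at 537 of 538 aligned bases (99.8%), and Hbb-bs and Hbb-bt at 580 of 626 (92.7%). Of 50-base windows, 86.9% of those in Hba-a2 also occur in Hba-a1 and 58.3% of those in Hbb-bt also occur in Hbb-bs, so reads can have been split between the copies in either pair, and single values of a pair are uncertain.

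Globin reads were least abundant in libraries labelled Zfp521-CKO replicates 1 and 2, but replicate 3 of the same label lay among the Zfp521fl/fl libraries, and no globin passed the test. The 4 globins together had 239, 287 and 1644 rpm in libraries labelled Zfp521-CKO replicates 1, 2 and 3, against 4147, 749 and 1161 in Zfp521fl/fl replicates 1, 2 and 3. These sums are 0.024%, 0.029% and 0.16% of reads, against 0.41%, 0.075% and 0.12%. The ranges of the groups therefore overlapped through replicate 3 labelled Zfp521-CKO.

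Hba-a1 (ENSMUSG00000069919), an alpha chain gene, had 24.9, 99.4 and 895 rpm in libraries labelled Zfp521-CKO, against 1828, 266 and 635 in the Zfp521fl/fl libraries. Its highest library, Zfp521fl/fl replicate 1, was 73.3 times its lowest, replicate 1 labelled Zfp521-CKO. On the deposited scale, log2(normalized count + 1), it averaged 10.48 ± 3.0 in libraries labelled Zfp521-CKO and 13.13 ± 1.24 in Zfp521fl/fl libraries (SD, n = 3 each), a log2 difference of -2.65 with a standard error of 1.36 (limma adjusted p = 0.61).

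Hba-a2 (ENSMUSG00000069917) followed the same order of libraries. It had 7.94, 29.6 and 453 rpm in libraries labelled Zfp521-CKO, against 849, 79.7 and 249 in the Zfp521fl/fl libraries, and its log2 difference was -2.70 with a standard error of 1.68 (limma adjusted p = 0.62). The groups overlapped for both alpha globins, with replicate 3 labelled Zfp521-CKO second highest of the 6 libraries for each.

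Hbb-bs (ENSMUSG00000052305), a beta chain gene, had 65.3, 51.0 and 238 rpm in libraries labelled Zfp521-CKO, against 974.8, 303 and 109 in the Zfp521fl/fl libraries. Its groups overlapped too, and the log2 difference was -2.06 with a standard error of 1.18 (limma adjusted p = 0.61). Hbb-bt (ENSMUSG00000073940) had 141, 107 and 57.0 rpm in libraries labelled Zfp521-CKO, against 496, 99.8 and 169 in the Zfp521fl/fl libraries. It varied least of the 4, with 8.70 times between its highest and lowest library, and replicate 3 labelled Zfp521-CKO was here the lowest. Its deposited log2 values were 10.31, 9.996 and 9.76, against 12.45, 10.44 and 11.29, so the groups did not overlap on that scale, which 2.05% of genes tested and 7.13% of those with reads in all 6 libraries also showed in this direction, whereas they overlapped in rpm. Its log2 difference was -1.37 with a standard error of 1.06 (limma adjusted p = 0.67).

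**Figure D1:**
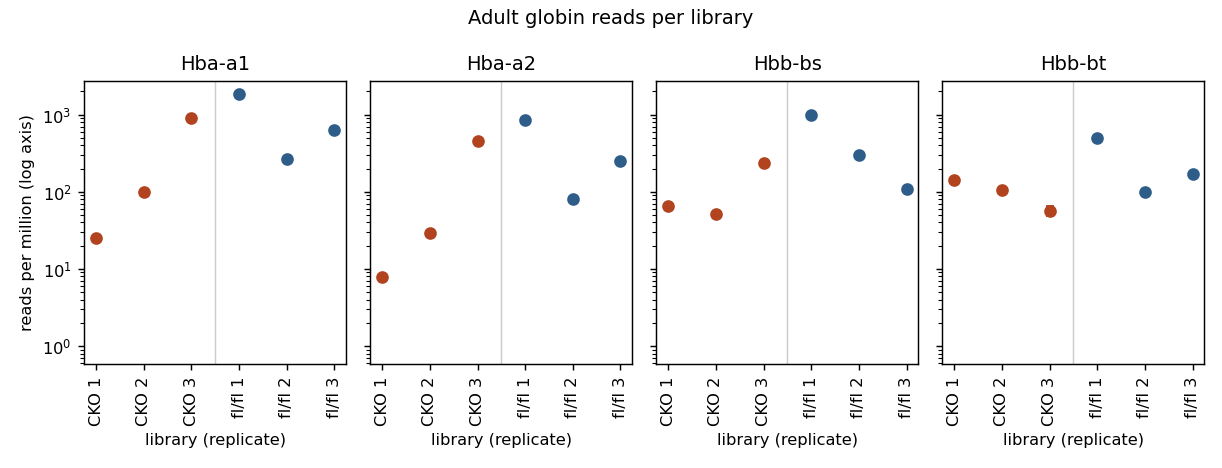
Level of each adult globin in rpm (log axis) in the 3 libraries labelled Zfp521-CKO (red, left) and the 3 Zfp521fl/fl libraries (blue, right), with exact 95% Poisson intervals where wider than the point. Hba-a1 and Hba-a2 share 1 order of libraries, and replicate 3 labelled Zfp521-CKO is high for both alpha globins and lowest for Hbb-bt.

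The make-up of globin reads differed more between libraries than the copies of an alpha pair did. Hba-a1 gave 75.9%, 77.0% and 66.4% of alpha reads in libraries labelled Zfp521-CKO, against 68.3%, 76.9% and 71.9% in the Zfp521fl/fl libraries. Hbb-bs gave 31.6% (95% Wilson interval 30.8 to 32.5), 32.3% (31.0 to 33.6) and 80.7% (78.0 to 83.1) of beta reads in libraries labelled Zfp521-CKO. In the Zfp521fl/fl libraries it gave 66.3% (65.5 to 67.0), 75.2% (73.7 to 76.8) and 39.1% (37.0 to 41.2). Hbb-bt was thus the more abundant beta globin in replicates 1 and 2 labelled Zfp521-CKO and in Zfp521fl/fl replicate 3, and Hbb-bs in the other 3. Intervals and floors here cover counting error only, since PCR copies are not independent molecules.

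The balance of alpha to beta reads ran over a wide range as well. Per kilobase of transcript, alpha reads were 0.16, 0.84 and 4.56 times beta reads in libraries labelled Zfp521-CKO, against 1.84, 0.84 and 3.28 times in the Zfp521fl/fl libraries. Alpha exceeded beta by this measure in 3 of the 6 libraries, and replicate 1 labelled Zfp521-CKO, with 1843 alpha reads and 11577 beta reads, had the lowest ratio. The labels of the groups did not sort this ratio, since the range of libraries labelled Zfp521-CKO enclosed that of the Zfp521fl/fl libraries.

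**Figure D2:**
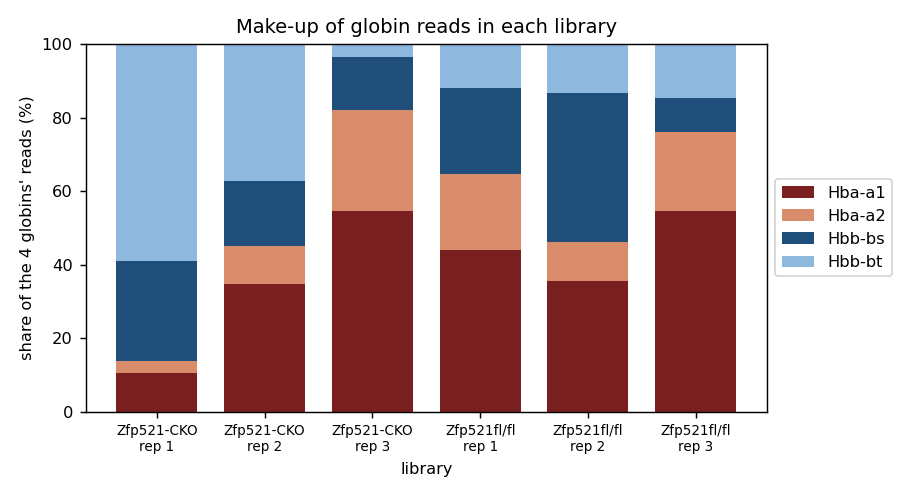
Share of the reads of the 4 adult globins (percent, vertical axis) contributed by each gene in each of the 6 libraries, libraries labelled Zfp521-CKO on the left. Beta globins make up most of the bar in replicate 1 labelled Zfp521-CKO, where alpha reads are 13.7% of globin reads, and the least in replicate 3 of that label, where alpha reads are 82.0%.

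Summed, the erythroid regulators and enzymes were highest in replicates 1 and 2 labelled Zfp521-CKO, where the globin sum was lowest, and lowest in replicate 3 of that label, where the globin sum was second highest. None passed the test. The 5 measured regulators and enzymes together had 2257, 1050.3 and 38.4 rpm in libraries labelled Zfp521-CKO, against 306, 53.2 and 116 in the Zfp521fl/fl libraries. Car2 supplied most of these reads, and without it the sums were 179, 80.3 and 1.28, against 55.8, 0 and 0.

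Gata1 (ENSMUSG00000031162), the transcription factor that commits progenitors to the erythroid and megakaryocyte lineages, had 76.8, 12.0 and 0 rpm in libraries labelled Zfp521-CKO, against 7.24, 0 and 0 in the Zfp521fl/fl libraries. The groups overlapped, since reads were present in 2 libraries of the first and 1 of the second. Its log2 difference was 3.31 with a standard error of 3.15 (limma adjusted p = 0.67). Klf1 (ENSMUSG00000054191), the activator of adult beta globin, had reads in the same 3 libraries, with 15.3, 25.7 and 0 rpm in libraries labelled Zfp521-CKO, against 10.5, 0 and 0 in the Zfp521fl/fl libraries. Klf1 therefore differed by less than 3-fold among the libraries that held it. Its log2 difference was 2.72 with a standard error of 3.09 (limma adjusted p = 0.70). That difference rests on reads in 2 libraries labelled Zfp521-CKO and 1 Zfp521fl/fl library, with 0 in the others.

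Epor (ENSMUSG00000006235), the erythropoietin receptor, had 2010 reads in replicate 1 labelled Zfp521-CKO, a level of 35.8 rpm with an exact 95% Poisson interval of 34.3 to 37.4, and 0 reads in each of the other 5. The floor of 3 reads stood at 0.098 and 0.96 rpm in replicates 2 and 3 labelled Zfp521-CKO and at 0.28, 0.41 and 0.40 in the Zfp521fl/fl libraries. Reads in that library and in no other were found for 9.01% of genes tested. The log2 difference of 2.78 with a standard error of 2.25 (limma adjusted p = 0.67) rests on this 1 library, and without it Epor had no reads left to test.

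Car1 (ENSMUSG00000027556), a carbonic anhydrase of erythroid cells, had 50.9, 42.6 and 1.28 rpm in libraries labelled Zfp521-CKO, against 38.1, 0 and 0 in the Zfp521fl/fl libraries. Its 3 highest libraries were the ones that held Gata1 and Klf1 reads. The log2 difference was 4.37 with a standard error of 3.02 (limma adjusted p = 0.67). Car2 (ENSMUSG00000027562), the carbonic anhydrase also found in early progenitors, was the 1 regulator or enzyme with reads in all 6 libraries. It had 2078, 970.0 and 37.2 rpm in libraries labelled Zfp521-CKO, against 250.2, 53.2 and 116 in the Zfp521fl/fl libraries, so that replicates 1 and 2 labelled Zfp521-CKO were highest and replicate 3 lowest. Its log2 difference was 1.59 with a standard error of 1.30 (limma adjusted p = 0.67).

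**Figure D3:**
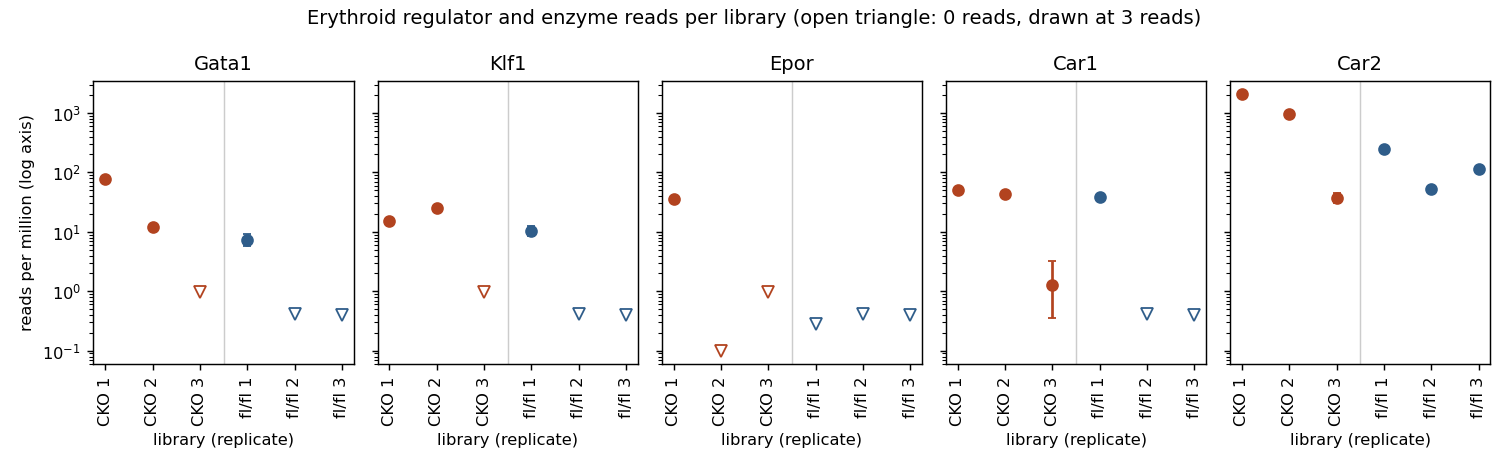
Level in rpm (log axis) of 5 erythroid regulators and enzymes in libraries labelled Zfp521-CKO (red, left) and the Zfp521fl/fl libraries (blue, right), with exact 95% Poisson intervals. Open triangles stand for 0 reads and are drawn at the level of 3 reads, and replicate 3 labelled Zfp521-CKO holds 0 reads of Gata1, Klf1 and Epor.

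The zeros of replicate 3 labelled Zfp521-CKO were read against its depth. At the rate of replicate 2 labelled Zfp521-CKO, replicate 3 of that label would have held 80.1 Klf1 reads, 37.5 Gata1 reads and 133 Car1 reads, where 0, 0 and 4 were counted. Thinned to the 3121303 reads of that shallowest library, libraries labelled Zfp521-CKO replicates 1 and 2 still held 235 and 39 Gata1 reads and 36 and 68 Klf1 reads.

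Set against each other per kilobase, globins and Car2 changed places. The 4 globins held 0.31, 0.79 and 123 times the Car2 reads in libraries labelled Zfp521-CKO, against 45.8, 38.6 and 27.3 times in the Zfp521fl/fl libraries. The 3 Zfp521fl/fl libraries lay within 1 log2 unit of each other in this ratio, at log2 ratios of 5.52, 5.27 and 4.77. The libraries labelled Zfp521-CKO lay at -1.71, -0.34 and 6.94, below all of them in replicates 1 and 2 and above all of them in replicate 3.

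**Figure D4:**
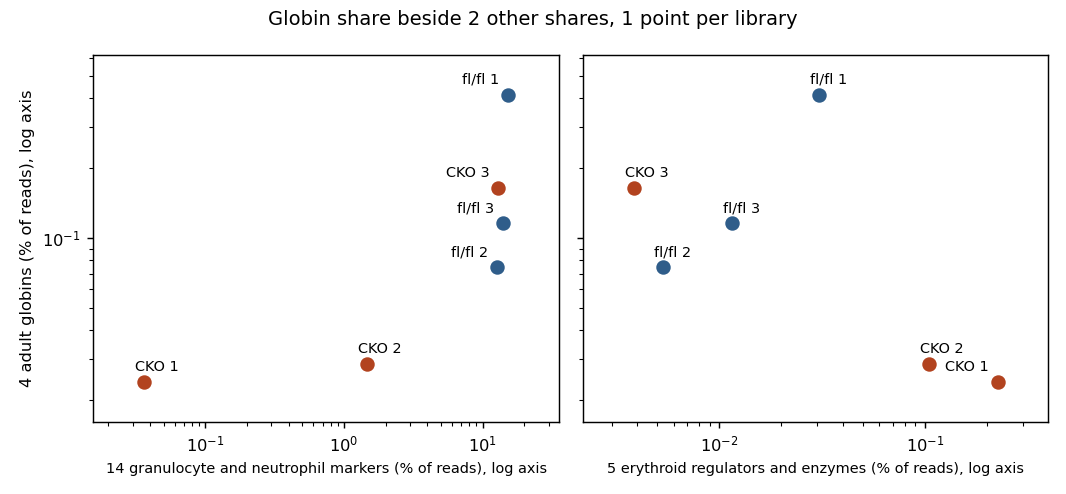
Share of reads of the 4 adult globins (percent, vertical) against that of 14 granulocyte and neutrophil markers (left) and of 5 erythroid regulators and enzymes (right), all on log axes, 1 point per library, libraries labelled Zfp521-CKO in red and Zfp521fl/fl libraries in blue. Replicates 1 and 2 labelled Zfp521-CKO have the lowest globin and neutrophil shares and the highest regulator shares, and replicate 3 of that label has a neutrophil share of 12.99% and a regulator share of 0.0038%.

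The 2 libraries with the lowest globin shares also had the lowest granulocyte and neutrophil shares, as the plot of shares shows, and the part of other cells or their RNA in the globin values was not tested. The other 4 libraries had 12.70% to 15.26% of reads from granulocyte and neutrophil markers. Their globin sums were 1644 rpm in replicate 3 labelled Zfp521-CKO and 4147, 749 and 1161 rpm in the Zfp521fl/fl libraries.

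With all 6 libraries, 0 of 16436 genes, 0% of those tested, had a limma adjusted p under 0.05, and 0 of the 9 members did. At an unadjusted p under 0.05 there were 917 genes (5.58%) and 0 members. The 4 globins had a median log2 difference of -2.35 and 4 of 4 lay lower in libraries labelled Zfp521-CKO, a direction shown by 26.4% of genes tested and by 49% of those with reads in all 6 libraries. The 5 regulators and enzymes had a median of 2.78 and all 5 were higher, a direction shown by 73.6% of genes tested, whose median was 1.63. Without replicate 3 labelled Zfp521-CKO, the groups did not overlap on the deposited scale for any of the 4 globins, which were lower, as were 4.32% of genes tested and 18.3% of those with reads in all 6 libraries. They then did not overlap for Gata1, Klf1 and Car2, which were higher, as were 31.5% of genes tested. In that fit 15.5% of genes passed the limma test and 0 of the 9 members did, while 23.2% of genes and 4 members had an unadjusted p under 0.05. There the log2 differences were -4.28 for Hba-a1 (limma adjusted p = 0.069), -4.57 for Hba-a2 (0.12), -2.98 for Hbb-bs (0.17) and 3.10 for Car2 (0.066). Leaving out any other single library gave 0 genes past the limma threshold. Without replicate 1 labelled Zfp521-CKO the log2 differences of these 4 genes and of Gata1 were nearer to 0 than with all 6 libraries, at -1.32 for Hba-a1 (limma adjusted p = 0.82), -1.28 for Hba-a2 (0.84), -1.67 for Hbb-bs (0.78), 1.30 for Gata1 (0.96) and 0.58 for Car2 (0.95). With a weight per library, 10.1% of genes and 0 members passed the limma test, and 27% of genes and 4 members had an unadjusted p under 0.05. With voom on whole reads these shares were 0.0244% of genes and 0 members, and 15.8% of genes and 5 members.

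**Figure D5:**
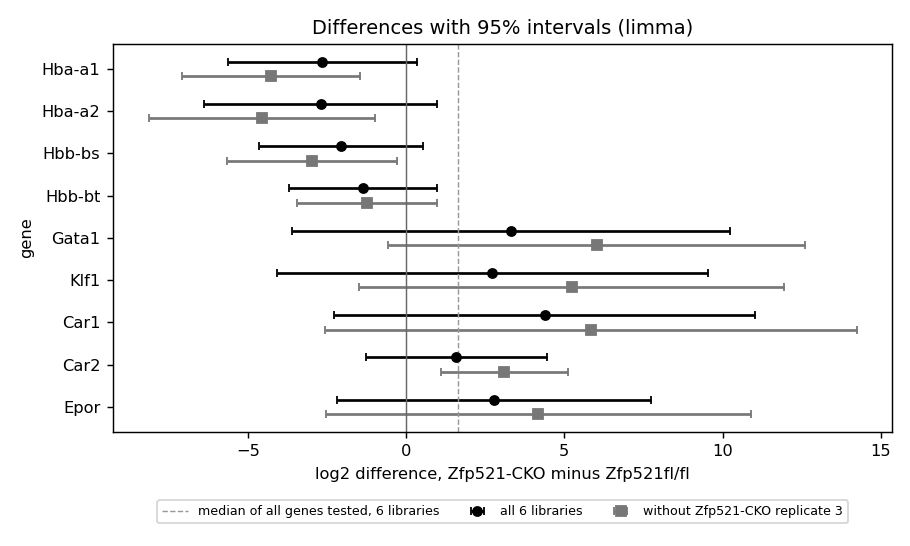
Log2 differences with 95% intervals from limma for the 9 members (horizontal axis, libraries labelled Zfp521-CKO minus Zfp521fl/fl libraries), with all 6 libraries (black circles) and without replicate 3 labelled Zfp521-CKO (grey squares). The dashed line is the median of all genes tested, 1.63, and the 4 globins lie below 0 while the 5 regulators and enzymes lie above 0.

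Other genes of red cell formation were read from lists by role, and no gene of any list passed the limma test with all 6 libraries. Counts of differences above 0 in the lists stand beside 73.6% of all genes tested. Among 18 erythroid transcription factors and cofactors, 11 differences were above 0 and 7 below, with a median log2 difference of 0.66 against 1.63 over all genes tested. Nfe2, a bZIP factor that acts on globin loci, had deposited values of 12.78, 11.49 and 11.80 in libraries labelled Zfp521-CKO, against 9.85, 7.91 and 10.34 in the Zfp521fl/fl libraries. Its groups did not overlap, which 7.17% of genes tested also showed in this direction, and its log2 difference was 2.65 with a standard error of 1.12 (limma adjusted p = 0.61). Nfe2 was high in replicate 3 labelled Zfp521-CKO, where Gata1 and Klf1 had no reads. Lmo2, a partner of GATA1 in its DNA-bound complex, had 222, 211 and 486 rpm in libraries labelled Zfp521-CKO, against 0.66, 1595 and 2.28 in the Zfp521fl/fl libraries. Its highest library was thus Zfp521fl/fl replicate 2, and its log2 difference of 4.05 (limma adjusted p = 0.62) rests on the low values of the other 2 Zfp521fl/fl libraries. Ldb1, of the same complex, had 62.9, 134.7 and 33.6 rpm in libraries labelled Zfp521-CKO, against 17.7, 0 and 87.3 in the Zfp521fl/fl libraries, with overlapping groups and a log2 difference of 3.50 (limma adjusted p = 0.67).

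The heme pathway was listed with 13 measured genes, of which 10 differences were above 0 and 3 below, at a median of 2.71. The lowest unadjusted p belonged to Slc25a38, the mitochondrial glycine carrier, with deposited values of 7.08, 5.13 and 0 in libraries labelled Zfp521-CKO against 0 in each Zfp521fl/fl library. Reads in some library labelled Zfp521-CKO and in no Zfp521fl/fl library were found for 6795 of all 19086 genes. Urod and Cpox, which act late in porphyrin synthesis, had log2 differences of 4.74 and 2.92 (limma adjusted p = 0.61 and 0.67). Without replicate 3 labelled Zfp521-CKO, 1 of the 13 genes, Slc25a38, passed the threshold, as did 15.5% of all genes tested.

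Genes of the red cell membrane and surface gave 9 differences above 0 and 6 below among 15 measured, at a median of 1.89. Tfrc, the transferrin receptor, averaged 7.77 ± 2.58 in libraries labelled Zfp521-CKO and 10.56 ± 1.60 in the Zfp521fl/fl libraries (SD, n = 3 each), a log2 difference of -2.79 (limma adjusted p = 0.62). Cd24a, which encodes a surface protein, had a log2 difference of -2.50 (limma adjusted p = 0.65), and Ank1, the ankyrin that anchors the membrane skeleton, had reads in replicate 3 labelled Zfp521-CKO and in no other library.

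Of 12 measured maturation genes, 9 differences were above 0 and 3 below, at a median of 3.12. Bpgm, the enzyme that makes the red cell's 2,3-bisphosphoglycerate, had 61.7, 72.6 and 0 rpm in libraries labelled Zfp521-CKO against 0 in each Zfp521fl/fl library. Nprl3, whose introns hold enhancers of the alpha globin genes, had 26.2, 44.9 and 0 rpm against 0 in each Zfp521fl/fl library. Of all 19086 genes, 6795 likewise had reads in some library labelled Zfp521-CKO and in no Zfp521fl/fl library. Isg20, an exonuclease, had a log2 difference of 5.02 (limma adjusted p = 0.63). Without replicate 3 labelled Zfp521-CKO these 3 genes passed the threshold, as did 15.5% of all genes tested.

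Erythropoietin signalling was represented by 12 genes, with 9 differences above 0 and 3 below, at a median of 1.17. Tfr2, a partner of Epor at the cell surface, had 76.3, 24.8 and 0.64 rpm in libraries labelled Zfp521-CKO, against 0, 0.41 and 0 in the Zfp521fl/fl libraries, and its log2 difference was 6.00 with a standard error of 2.63 (limma adjusted p = 0.61). The feedback inhibitors Socs3 and Cish had log2 differences of 3.47 and 4.52 (limma adjusted p = 0.61 and 0.62). Without replicate 3 labelled Zfp521-CKO, 3 of the 12 genes passed, namely Jak2, Socs3 and Tfr2, all higher, beside the same 15.5% of all genes.

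All 7 measured carbonic anhydrases had differences above 0, at a median of 3.08, beside 73.6% of all genes tested and their median of 1.63. Of the 7, 3 had no reads in any Zfp521fl/fl library, so their differences could not be below 0, and 1 had reads in all 6 libraries. Among those not on the member list, Car13, Car3 and Car9 had log2 differences of 5.13, 5.61 and 3.08 (limma adjusted p = 0.61, 0.61 and 0.67), and Car9 had reads in replicate 1 labelled Zfp521-CKO and in no other library. Without replicate 3 of that label 1 of the 7, Car13, passed, beside the same 15.5% of all genes. Iron uptake and storage genes went both ways, with 4 differences above 0 and 8 below among 12, at a median of -0.37. Besides Tfrc, Pcbp2 and Steap3 had log2 differences of 2.13 and 2.44 (limma adjusted p = 0.67 for both). Of 6 embryonic and minor globins in the lists, none was analysed here.

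Markers of red cells and of erythroid progenitors were summed as lists. The 9 measured red cell and reticulocyte markers, 4 of them the globins, took 0.036%, 0.040% and 0.16% of reads in libraries labelled Zfp521-CKO, against 0.42%, 0.075% and 0.12% in the Zfp521fl/fl libraries. That order is the globins' own. The 5 other markers of the list together had 118, 115 and 1.28 rpm in libraries labelled Zfp521-CKO, against 60.0, 0 and 0 in the Zfp521fl/fl libraries. These markers did not share 1 direction. In replicates 1 and 2 labelled Zfp521-CKO the sum was mostly Bpgm, with 61.7 and 72.6 rpm, and Car1, with 50.9 and 42.6. Slc4a1 and Epb42, of the same list, had 14.6 and 7.33 rpm in Zfp521fl/fl replicate 1 and no reads in any other library. The 12 erythroid progenitor markers took 0.25%, 0.11% and 0.020% of reads in libraries labelled Zfp521-CKO, against 0.046%, 0.042% and 0.023% in the Zfp521fl/fl libraries. Single genes dominated these sums. Car2 supplied 2078 of 2518 rpm and 970.0 of 1149 rpm in replicates 1 and 2 labelled Zfp521-CKO, and Tfrc 359 of 417 rpm in Zfp521fl/fl replicate 2. The order of the sums is therefore not that of the list as a whole. Each list shares members with the 9 genes described above and is not independent of them.

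The gene profiles nearest to the globins were mostly ribosomal protein pseudogenes. Likeness was taken as the root mean square difference between log2 profiles over the 6 libraries, each centred on its own mean, among 2310 named genes with reads in all 6. The nearest to the mean of the 4 globins were Rpl19-ps1 at 0.18 log2 units, Rps19-ps10 at 0.25, Rpl31-ps9 at 0.48, Rps12-ps19 at 0.53 and Sorl1, a sorting receptor, at 0.54. Rpl19-ps1 had deposited values of 7.52, 8.65 and 11.23 in libraries labelled Zfp521-CKO, against 12.23, 10.13 and 10.70 in the Zfp521fl/fl libraries. The nearest to Klf1 were Ankrd13a at 0.55, Nudt5 at 0.60, Psmc4 at 0.61, Pcgf5 at 0.64 and Timm23 at 0.65. Since genes compared had to have reads in all 6 libraries, none that shares the zeros of Klf1, such as Gata1, could be returned.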

How the data were processed

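Sorted HSCs were profiled by RNA sequencing from total RNA, 3 libraries per genotype. Per the submitters' processing notes, build mm9, Bowtie and DESeq2 1.26.0 were used, with no roles given, and neither counter nor annotation is given in the sources used here. Values were deposited on a log2 scale. Although named FPKM, they hold log2(1 + reads over a library factor): of the 61139 values above 0, 99.7% were whole multiples of 1 step per library within 0.001 read, and the 213 others lay in a block of 75 rows holding no member. These 213 values were left out of read totals. A value of 3 reads is a log2 value of 0.57, 0.95 and 3.96 in libraries labelled Zfp521-CKO and of 2.07, 2.74 and 2.80 in the Zfp521fl/fl libraries, so a difference from 0 reads depends on the depth of a library.

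Differences were tested with limma 3.58.1 under R 4.3.3 (moderated with a variance trend, two-sided, Benjamini-Hochberg over all genes, threshold 0.05) on the deposited log2 values with all 6 libraries, for 16436 genes with a mean of at least 1 normalized count. The fit was tested on simulated counts that varied less between libraries than most members did. That test therefore does not cover a spread as large as theirs. No test was run over the members as a list. The members, lists (232 entries in 19 lists, 185 matched to a row) and alternatives were chosen with earlier results of these data known. Named besides the members and Zfp521 are the 3 other genes of each pathway list with the smallest unadjusted p and the 5 genes of nearest profile. Slamf1, Kit, Slc4a1, Epb42, Jak2 and the genes of the closing observations were picked after their values were seen. Transcript lengths and identities come from GENCODE M21 and promoters from RefSeq, on GRCm38, another build than mm9. Alternatives were the pseudocount, filters, scalings, library weights, variance trend, voom on whole reads, thinning, the replicate block, rows off whole reads and leaving out each library.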

Additional observations from a re-analysis of the deposited data

How the results depend on the processing

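No member passed the threshold under any of 18 alternatives, and none of the 161 differences changed sign. Part of that count was fixed in advance. The filters, the variance trend, the replicate block and leaving out rows off whole reads keep each member's difference as it was. Epor had no reads in any Zfp521fl/fl library, so on the deposited scale its difference could not fall below 0. The lowest limma adjusted p of a member was 0.060, for Hba-a1 with a weight per library, where replicate 3 labelled Zfp521-CKO received 0.24 and the others 0.82 to 2.12. Its log2 difference ranged from -4.60 with voom to -1.32 when a library was left out, without replicate 1 labelled Zfp521-CKO. Klf1 ranged from 0.48 with quantile normalization to 5.23. The count of genes past the threshold was 0 and became 17 with quantile normalization, 1660 with a weight per library and 4 with voom on whole reads. It was 2529 without replicate 3 labelled Zfp521-CKO and 0 when any other single library was left out. The cause was not tested. Quantile normalization moved the median difference of all genes from 1.63 to 0.22 and scaling to a total of 1000000 moved it to 0.91; in both, the 4 globins stayed below 0 and the 5 regulators and enzymes above. With the replicate block, 0 genes and 0 members passed. Deviations of same-numbered libraries correlated across genes at r = 0.031, -0.040 and 0.0055. With so few libraries per group and such unequal depth, these values cannot decide whether same-numbered libraries were paired. Depth limits zeros most in replicate 3 labelled Zfp521-CKO, where 3 reads are 0.96 rpm.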

Other observations

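The ferritin genes, which store iron, varied less between libraries than the globins did. Ftl1 had 2669.7, 1672 and 1578 rpm in libraries labelled Zfp521-CKO, against 2832, 2783 and 1289.6 in the Zfp521fl/fl libraries. Fth1 had 2682, 1549 and 1569 against 2082, 4643 and 774.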
